A study of Homo sapiens with 9 samples.

Results

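The genes described here are 5 members of the protein 4.1 family, EPB41, EPB41L1, EPB41L2, EPB41L3 and EPB41L5, each read through many probe sets on a human exon array. A probe set is a small group of probes that reads 1 exon or a piece of it. Members were the probe sets that the platform annotation assigns to exactly 1 gene symbol among these 5, which gave 209 of the 1384231 probe sets on the array. EPB41 had 34 of them, EPB41L1 had 54, EPB41L2 had 37, EPB41L3 had 50 and EPB41L5 had 34. The study measured total RNA of Flip-In-293 cells, an established line derived from HEK293 human embryonic kidney cells that carries a single site for transgene integration. All cells were infected with a lentivirus expressing a short hairpin RNA and kept in culture for 10 days, and 3 arrays were run per group. The hairpin targeted CPSF3, the endonuclease that cuts pre-mRNA ahead of the poly(A) tail, or RBFOX2, a splicing regulator, and the control cells received a non-silencing hairpin. Sample titles describe the replicates as biological and the series description as technical, so the spread behind every p-value is that among 3 arrays and may be no more than technical.

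Protein 4.1 molecules carry a FERM domain, a module that binds the cytoplasmic tails of membrane proteins, and most of them also carry a domain that binds spectrin and actin, so that they tie the membrane to the skeleton below it. EPB41 encodes the founding member, first described in red blood cells. Its exon 16 encodes part of the spectrin-actin binding domain, is largely skipped in early erythroid precursors and is included late in their differentiation. RBFOX proteins bind recognition elements in the intron after that exon and promote its inclusion, which makes EPB41 a textbook target of this family. The platform annotation used here gives a gene for each probe set but neither an exon number nor a position in the gene, so which probe set reads exon 16 is not stated below.

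Values are log2 signals as the submitters deposited them. A probe set was kept where its mean over the 9 arrays reached 6.97, the median of all probe sets, and 182 of the 209 passed, 27 in EPB41, 45 in EPB41L1, 35 in EPB41L2, 46 in EPB41L3 and 29 in EPB41L5. The 27 that did not pass had means from 3.24 to 6.96 and were not tested further. The gene level is the median of a gene's kept probe sets on an array. The exon signal is what remains of a probe set's log2 signal once that array's gene level is subtracted, so a negative difference in exon signal means that a probe set lost more, or gained less, than the rest of its gene. Differences are given with the standard error from limma, levels with the SD over 3 arrays, and adjusted p-values are Benjamini-Hochberg values from limma over all genes, all exon signals or all probe sets. With 3 arrays in each group, the smallest p that exact permutation allows is 0.1. Each array measured a whole culture, so fewer cells with a transcript and less of it per cell cannot be told apart.

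The hairpin targets set how far the labels can be used. RBFOX2 was at 8.95, 8.82 and 9.05 on the RBFOX2 hairpin arrays, against 9.66, 9.54 and 9.38 on the control arrays, a difference of -0.58 ± 0.12 that leaves 66.7% of the control level (adjusted p = 0.0617, limma, and 0.00242 to 0.373 over 18 other settings, 5 of which passed, among them the one without control array 3, at -0.66). All RBFOX2 hairpin arrays lay below all control arrays. CPSF3 was at 9.60, 9.27 and 9.27 on the arrays labelled CPSF3 knockdown, against 9.33, 9.29 and 9.80 on the control arrays. That difference was -0.09 ± 0.16 (adjusted p = 0.752, limma) and turned to 0.07 without control array 3. Relative to the RBFOX2 hairpin arrays CPSF3 was lower by 0.34 ± 0.16, with overlapping arrays, and did not pass (adjusted p = 0.373, limma). This difference ranged from -0.44 to -0.25 over 18 other settings. The RBFOX2 difference from control, at 0.0617, did not pass either, but its arrays did not overlap. For CPSF3 neither comparison passed and the arrays overlapped in both, so the transcript does not bear out the label. The group is called the arrays labelled CPSF3 knockdown, or CPSF3-labelled arrays, throughout. Control array 3 was nearer to another group than to its own. Over all genes its root mean square distance was 0.183 from the mean of the 3 RBFOX2 hairpin arrays. From the mean of the 2 other control arrays it was 0.294. RBFOX2 hairpin array 3 was likewise 0.198 from the mean of the 3 CPSF3-labelled arrays and 0.222 from that of the 2 others of its group. A mean of 2 arrays is less precise than one of 3, which by itself enlarges distances to the own group. No pair of arrays had the same value at most of its probe sets, and both comparisons with control share the same control arrays.

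EPB41L1 was the member whose gene level passed the test. EPB41L1 encodes the form often called the neuronal protein 4.1, which binds glutamate receptor subunits in neurons. It was at 8.11, 8.22 and 8.12 on the CPSF3-labelled arrays, 8.77, 8.54 and 8.66 on the RBFOX2 hairpin arrays and 8.68, 8.56 and 8.75 on the control arrays. Every CPSF3-labelled array lay below every other array, while the RBFOX2 hairpin arrays overlapped the control arrays. EPB41L1 fell by 0.51 ± 0.11 on the log2 scale on the CPSF3-labelled arrays relative to control, to 70.0% of the control level (95% interval -0.75 to -0.28, adjusted p = 0.00929, limma). The call held in 17 of 18 other settings and was lost with no filter on weak probe sets (-0.36, adjusted p = 0.0712). Of all 16748 genes tested, 14.4% passed in this comparison and 4.38% fell, and 1 of the 5 members passed. The RBFOX2 hairpin minus control difference was -0.01 ± 0.11 (95% interval -0.25 to 0.23, adjusted p = 0.983), in a comparison that called 0.173% of all genes. Between the targeted groups, CPSF3-labelled minus RBFOX2 hairpin, EPB41L1 differed by -0.50 ± 0.11 (95% interval -0.74 to -0.27) with an adjusted p of 0.0799 in limma, where 0.400% of all genes passed. Without control array 3 it was again -0.50 and passed. The arrays of the targeted groups did not overlap, as for 20.4% of all genes.

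The other members did not pass at the gene level in any comparison. EPB41 was at 9.86 ± 0.20 on the CPSF3-labelled arrays, 9.92 ± 0.09 on the RBFOX2 hairpin arrays and 9.63 ± 0.24 on the control arrays (SD, n = 3 each). Its arrays overlapped between all groups, with differences from control of 0.23 ± 0.14 for the CPSF3-labelled arrays (95% interval -0.08 to 0.53, adjusted p = 0.33, limma) and 0.29 ± 0.14 for the RBFOX2 hairpin arrays (-0.02 to 0.60, adjusted p = 0.398). EPB41L2, which encodes the broadly expressed protein 4.1 of many tissues, was at 9.80 ± 0.22 on the CPSF3-labelled arrays, 9.44 ± 0.18 on the RBFOX2 hairpin arrays and 9.57 ± 0.31 on the control arrays, and all groups overlapped.

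EPB41L3 encodes a family member that binds cell adhesion molecules and is often lost in tumours. It was at 9.88, 9.75 and 9.80 on the CPSF3-labelled arrays, 9.57, 9.50 and 9.63 on the RBFOX2 hairpin arrays and 9.39, 9.53 and 9.61 on the control arrays. The CPSF3-labelled arrays were all above the others, by 0.30 ± 0.11 relative to control (95% interval 0.07 to 0.54, adjusted p = 0.0788, limma), and the RBFOX2 hairpin arrays overlapped control at 0.06 ± 0.11 (adjusted p = 0.886). EPB41L5 encodes a FERM protein of epithelial polarity that is needed in mouse gastrulation. It was at 8.97, 8.79 and 8.66 on the CPSF3-labelled arrays, 8.58, 8.68 and 8.53 on the RBFOX2 hairpin arrays and 9.52, 8.89 and 8.82 on the control arrays. Here the RBFOX2 hairpin arrays were all below control, by -0.48 ± 0.16 (95% interval -0.83 to -0.13, adjusted p = 0.22, limma, past the test at -0.61 without control array 3), and the CPSF3-labelled arrays overlapped control at -0.27 ± 0.16 (adjusted p = 0.309). Control array 1, at 9.52, was the highest EPB41L5 value of the 9 arrays. Without it the differences from control shrank to -0.26 on the RBFOX2 hairpin and -0.05 on the CPSF3-labelled arrays. Groups that do not overlap were found for 31.1% of all genes between CPSF3-labelled and control arrays and for 14.1% between RBFOX2 hairpin and control arrays.

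**Figure D1:**
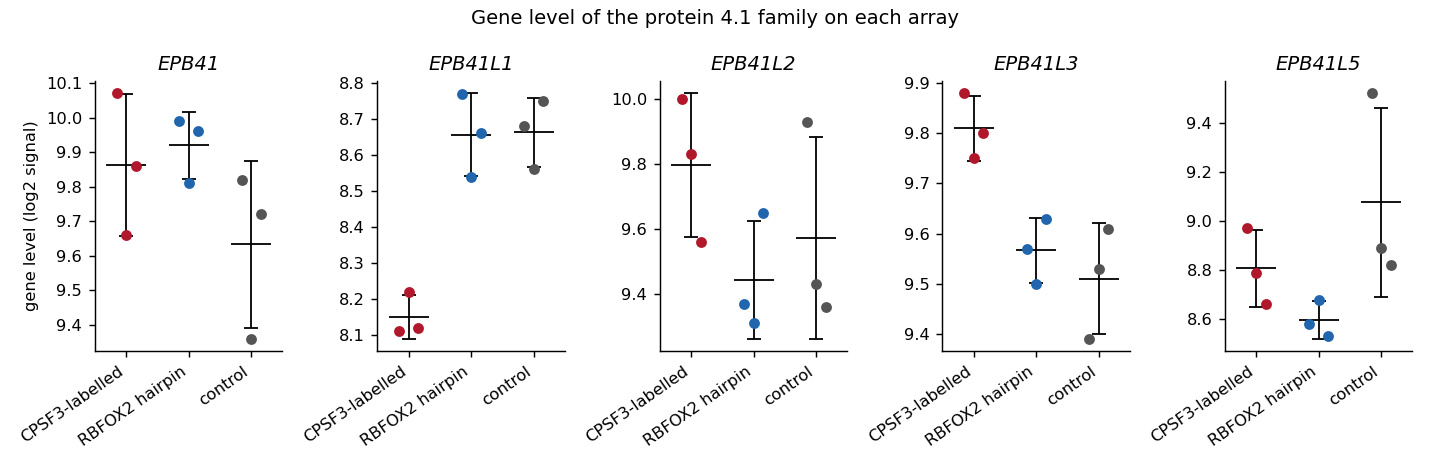
Gene level (log2 signal, y axis) of the 5 family members on the 9 arrays, by group from left to right: CPSF3-labelled, RBFOX2 hairpin and control. Points are arrays, bars the mean and SD, and each gene has its own y range; the 3 CPSF3-labelled arrays of EPB41L1, from 8.11 to 8.22, lie below every other array of that gene.

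Within the genes, no exon signal of the members passed the test over all exon signals, nor did any of the 257548 exon signals of all genes. The smallest adjusted p among the members was 0.0603 between CPSF3-labelled and control arrays, 0.405 between RBFOX2 hairpin and control arrays and 0.744 between the targeted groups. At an unadjusted p under 0.05 in limma, 39 of the 182 member probe sets (21.4%) differed between CPSF3-labelled and control arrays, 21 (11.5%) between RBFOX2 hairpin and control arrays and 27 (14.8%) between the targeted groups. The same threshold took 12.7%, 7.88% and 4.24% of all exon signals in these comparisons. Arrays did not overlap for 52 of the 182 probe sets (28.6%) between CPSF3-labelled and control arrays, against 18.6% of all exon signals, and 21 of those 52 belonged to EPB41L1. For the RBFOX2 hairpin and control arrays the count was 19 (10.4%), against 10.9% of all exon signals. Tested as single signals without the gene level, 7 of the 182 probe sets fell between CPSF3-labelled and control arrays, where 1.60% of the 692116 kept probe sets passed and 0.588% fell. Those 7 were ps2327732 of EPB41 and 6 probe sets of EPB41L1 (numbers after ps are the array's own probe set numbers). The RBFOX2 hairpin comparison called 0 of the 182 at this level and 0.000433% of all kept probe sets, with limma, and the comparison of the targeted groups called 0 of either.

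The probe set that departed furthest from its gene was ps2327732 of EPB41, the 21st of the gene's 27 kept probe sets in order of number. Its signal was 8.03, 7.67 and 7.63 on the CPSF3-labelled arrays, 8.30, 8.17 and 8.01 on the RBFOX2 hairpin arrays and 9.02, 8.56 and 8.61 on the control arrays. Every array of either targeted group was below every control array, although most other EPB41 probe sets had higher signals on the targeted arrays. The signal fell by 0.96 ± 0.18 on the log2 scale on the CPSF3-labelled arrays, a 1.94-fold difference from control (adjusted p = 0.0303, limma). On the RBFOX2 hairpin arrays the difference from control was -0.57 ± 0.18, or 1.48-fold, and did not pass (adjusted p = 0.342, limma). The call on the CPSF3-labelled arrays did not hold with no filter on weak probe sets (adjusted p = 0.116) or when any 1 array of that group, control array 1 or control array 2 was left out (adjusted p from 0.0837 to 0.129).

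Relative to the rest of EPB41 the separation was wider by construction, since the subtracted gene level was higher on the targeted than on the control arrays. Those gene-level differences, 0.23 ± 0.14 on the CPSF3-labelled and 0.29 ± 0.14 on the RBFOX2 hairpin arrays, did not pass. The exon signal of ps2327732 was -2.04, -1.99 and -2.23 on the CPSF3-labelled arrays, -1.69, -1.64 and -1.95 on the RBFOX2 hairpin arrays and -0.80, -0.80 and -1.11 on the control arrays. The 3 groups did not overlap, with the CPSF3-labelled arrays lowest and the control arrays highest. CPSF3-labelled minus control was -1.18 ± 0.14 (95% interval -1.50 to -0.87), and its p-value of 7.51e-06 ranked 28 among all 257548 exon signals, with an adjusted p of 0.0603 in limma. RBFOX2 hairpin minus control was -0.86 ± 0.14 (95% interval -1.17 to -0.55), ranked 52 by p-value, with an adjusted p of 0.405. CPSF3-labelled minus RBFOX2 hairpin was -0.32 ± 0.14 (95% interval -0.64 to -0.01, adjusted p = 1, limma).

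The exon call of ps2327732 between CPSF3-labelled and control arrays passed in 6 of 19 other settings. With the mean of the kept probe sets as gene level the adjusted p between CPSF3-labelled and control arrays was 0.0292 (limma). With the median of the gene's other probe sets it was 0.0272, and without control array 3 it was 0.0111. The call did not pass with no filter (adjusted p = 0.112, limma). Nor did it pass when any CPSF3-labelled array or either other control array was left out (adjusted p from 0.216 to 0.262, limma). The difference itself stayed between -1.29 and -1.11 in all settings that kept the probe set. With the RBFOX2 hairpin it ranged from -0.96 to -0.77 and passed without control array 3 (adjusted p = 0.0402, limma), and not otherwise. The mean signal of the probe set was 8.22, and a filter at the upper quartile of all probe sets, 8.36, removes it.

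Of the gene's 27 kept probe sets, 21 had a higher signal on the CPSF3-labelled than on the control arrays (median difference 0.33) and 24 had a higher signal on the RBFOX2 hairpin than on the control arrays (median difference 0.29), none of them past the test. Besides ps2327732, 3 probe sets had exon signals without overlap between CPSF3-labelled and control arrays, all higher by at most 0.28, so that 4 of 27 (14.8%) did not overlap, against 18.6% of all exon signals. The highest were ps2327729, at 0.28 ± 0.14 (adjusted p = 0.438, limma), and ps2327713, at 0.28 ± 0.13 (adjusted p = 0.406). For the RBFOX2 hairpin the only other such probe set was ps2327706, at 0.16 ± 0.15 (adjusted p = 0.862), which makes 2 of 27 (7.41%), against 10.9% of all exon signals. Lower exon signals whose arrays overlapped control were ps2327678, at -0.31 ± 0.14 on the CPSF3-labelled arrays (adjusted p = 0.377, limma), and ps2327683, at -0.65 ± 0.27 on the RBFOX2 hairpin arrays (adjusted p = 0.607). ps2327683 had exon signals of -2.75, -2.18 and -2.04 on the RBFOX2 hairpin arrays, against -2.27, -1.35 and -1.40 on the control arrays. Both were added after their values were seen, and each had an unadjusted p under 0.05. Directly before ps2327732 in number stands ps2327731, to which the annotation gives no gene symbol. Its signal was 7.25, 7.46 and 7.25 on the CPSF3-labelled arrays, 7.19, 7.26 and 7.32 on the RBFOX2 hairpin arrays and 7.48, 7.24 and 7.09 on the control arrays, so its groups overlapped. In all, 30 probe sets without a symbol lie within the range of EPB41 numbers, 12 of them above the filter, and they were not counted as members.

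**Figure D2:**
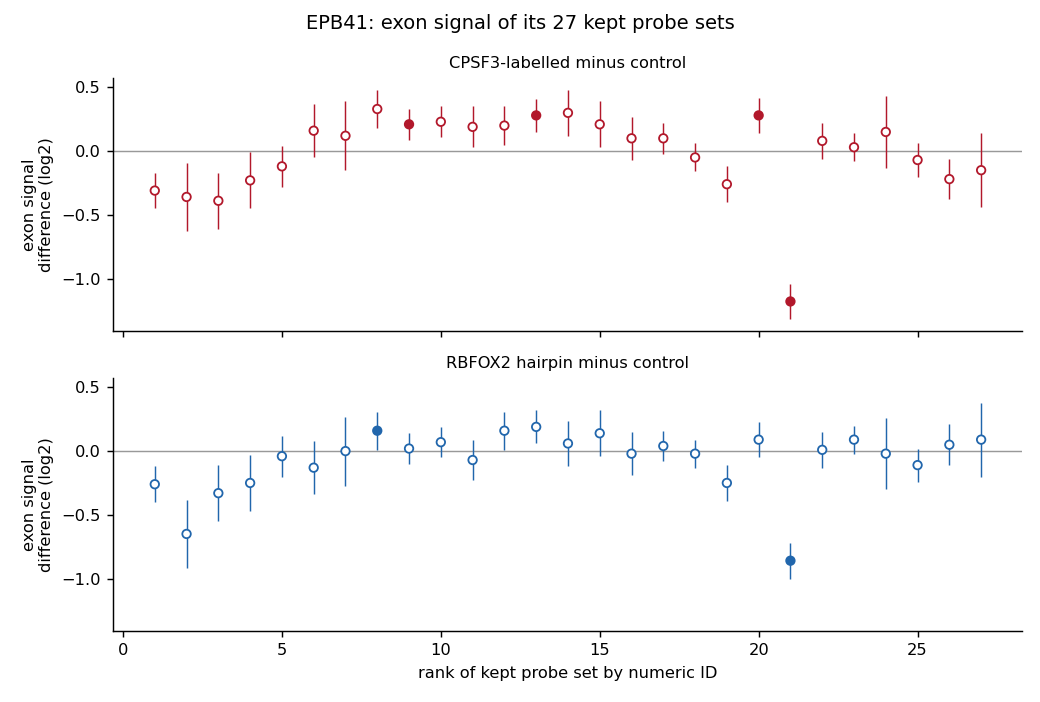
Difference in exon signal (log2, y axis) for the 27 kept EPB41 probe sets in order of probe set number (x axis), CPSF3-labelled minus control and RBFOX2 hairpin minus control. Bars are standard errors and filled points mark probe sets whose 3 arrays of one group all lie beyond those of the other; ps2327732 stands at -1.18 and -0.86, and the next lowest are ps2327684 at -0.39 on the CPSF3-labelled arrays and ps2327683 at -0.65 on the RBFOX2 hairpin arrays.

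**Figure D3:**
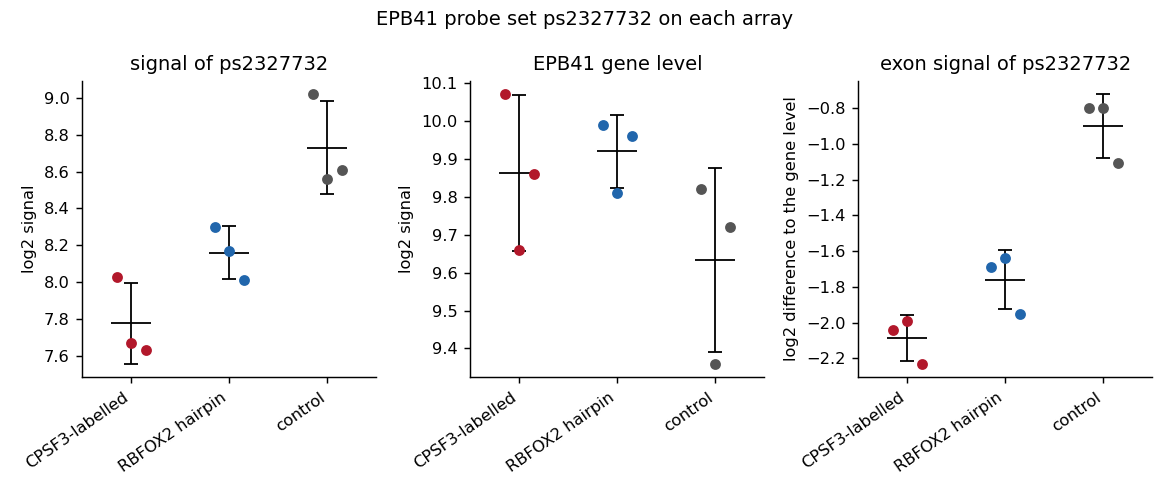
Signal of ps2327732, gene level of EPB41 and exon signal of ps2327732 (log2, y axes with different ranges) on each of the 9 arrays, by group from left to right: CPSF3-labelled, RBFOX2 hairpin and control. Points are arrays and bars the mean and SD; in signal and in exon signal all 6 arrays of the targeted groups lie below the control arrays, while the groups overlap in gene level.

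Of the 45 kept EPB41L1 probe sets, 36 had a lower signal on the CPSF3-labelled than on the control arrays, with a median difference of -0.45 and a range from -1.0 to 0.36. All 6 that fell were among the 15 probe sets with the highest numbers, ps3883761 to ps3883777. The medians over these 15 were 8.29, 8.31 and 8.40 on the CPSF3-labelled arrays, 9.26, 8.98 and 9.18 on the RBFOX2 hairpin arrays and 9.01, 8.81 and 9.11 on the control arrays. The CPSF3-labelled arrays were below all others, by -0.64 against control and by -0.81 against the RBFOX2 hairpin. For the 15 probe sets with the lowest numbers the medians differed from control by -0.36 and for the 15 in between by -0.16. Signals lay below all control arrays for 14 of the 15 highest-numbered probe sets, for 8 of the 15 lowest-numbered and for 3 of the 15 in between, and 9.66% of all kept probe sets did so.

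The differences of the 6 EPB41L1 probe sets that fell between CPSF3-labelled and control arrays were -0.94 for ps3883764 (adjusted p = 0.0327), -0.93 for ps3883767 (0.0243), -0.95 for ps3883768 (0.0256), -0.93 for ps3883769 (0.0222), -0.86 for ps3883770 (0.0309) and -0.94 for ps3883772 (0.0272), with limma. Each of the 6 calls was lost with no filter and when control array 1, control array 2 or any 1 CPSF3-labelled array was left out, while the differences stayed between -1.09 and -0.79. ps3883769 is the clearest example. Its signal was 9.73, 9.64 and 9.65 on the CPSF3-labelled arrays, 11.02, 10.80 and 10.86 on the RBFOX2 hairpin arrays and 10.61, 10.41 and 10.79 on the control arrays. CPSF3-labelled arrays were lowest and RBFOX2 hairpin arrays highest, with no overlap between any of the groups.

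As exon signal, ps3883769 was at 1.62, 1.42 and 1.53 on the CPSF3-labelled arrays, 2.25, 2.26 and 2.20 on the RBFOX2 hairpin arrays and 1.92, 1.85 and 2.03 on the control arrays. Its difference was -0.41 ± 0.11 between CPSF3-labelled and control arrays (adjusted p = 0.171, limma), 0.30 ± 0.11 between RBFOX2 hairpin and control arrays (adjusted p = 0.56) and -0.71 ± 0.11 between CPSF3-labelled and RBFOX2 hairpin arrays, which ranked 23 by p-value among all exon signals (adjusted p = 0.744). The neighbouring ps3883768 had an exon difference of -0.78 ± 0.14 between the targeted groups (adjusted p = 0.975, limma). Its signal was 8.08, 8.31 and 8.40 on the CPSF3-labelled arrays, 9.47, 9.48 and 9.68 on the RBFOX2 hairpin arrays and 9.43, 8.99 and 9.21 on the control arrays, so the CPSF3-labelled arrays stood alone at the bottom. That signal difference between the targeted groups was -1.28, or 2.43-fold (adjusted p = 0.101, limma).

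Several EPB41L1 probe sets of lower number had signals at or above control, and since the gene level itself was lower their exon signals were higher by construction. Of the 21 exon signals without overlap between CPSF3-labelled and control arrays, 15 were higher, all among the 30 probe sets with the lower numbers, and 6 were lower, all among the 15 with the highest numbers, where 8.75% of all exon signals were higher and 9.86% lower without overlap. Between the targeted groups 19 of the 45 did not overlap (42.2%), against 9.18% of all exon signals. Between CPSF3-labelled and control arrays the highest was ps3883743, at 0.88 ± 0.22 (adjusted p = 0.149, limma), whose signal of 7.77, 7.98 and 8.14 on the CPSF3-labelled arrays overlapped 7.21, 8.01 and 7.58 on the control arrays. The next was ps3883701, at 0.76 ± 0.19 (adjusted p = 0.148). The smallest p-value belonged to ps3883693, at 0.64 ± 0.16 against control (adjusted p = 0.147, limma) and 0.71 ± 0.16 against the RBFOX2 hairpin (adjusted p = 1), and its exon signals were 0.25, 0.54 and 0.36 on the CPSF3-labelled arrays and -0.59, 0.00 and -0.19 on the control arrays. Probe sets with higher exon signals were weaker, with a median signal of 8.05, than those with lower ones, with a median of 8.85, and the part of signal strength in this pattern was not tested. Across the 45 probe sets, mean signal and signal difference had a Pearson correlation of -0.21 and a Spearman correlation of -0.20, a description over probe sets that share the same arrays. With the RBFOX2 hairpin, 4 of the 45 exon signals did not overlap with control (8.89%, against 10.9% of all exon signals), and the smallest p-value belonged to ps3883755, at 0.39 ± 0.14 (adjusted p = 0.558, limma).

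Measured on each array, the median of the 15 highest-numbered EPB41L1 probe sets minus that of the 15 lowest-numbered was 0.10, -0.06 and 0.28 on the CPSF3-labelled arrays, 0.71, 0.45 and 0.77 on the RBFOX2 hairpin arrays and 0.47, 0.25 and 0.46 on the control arrays. The CPSF3-labelled arrays lay below the RBFOX2 hairpin arrays without overlap and overlapped the control arrays. CPSF3-labelled minus RBFOX2 hairpin was -0.54, and of the 7294 genes with at least 15 kept probe sets 0.932% had a difference of at least this size in either direction and 10.7% had groups without overlap. CPSF3-labelled minus control was -0.29, a size that 25.9% of these genes reached. The annotation does not say at which end of the gene the highest numbers lie.

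**Figure D4:**
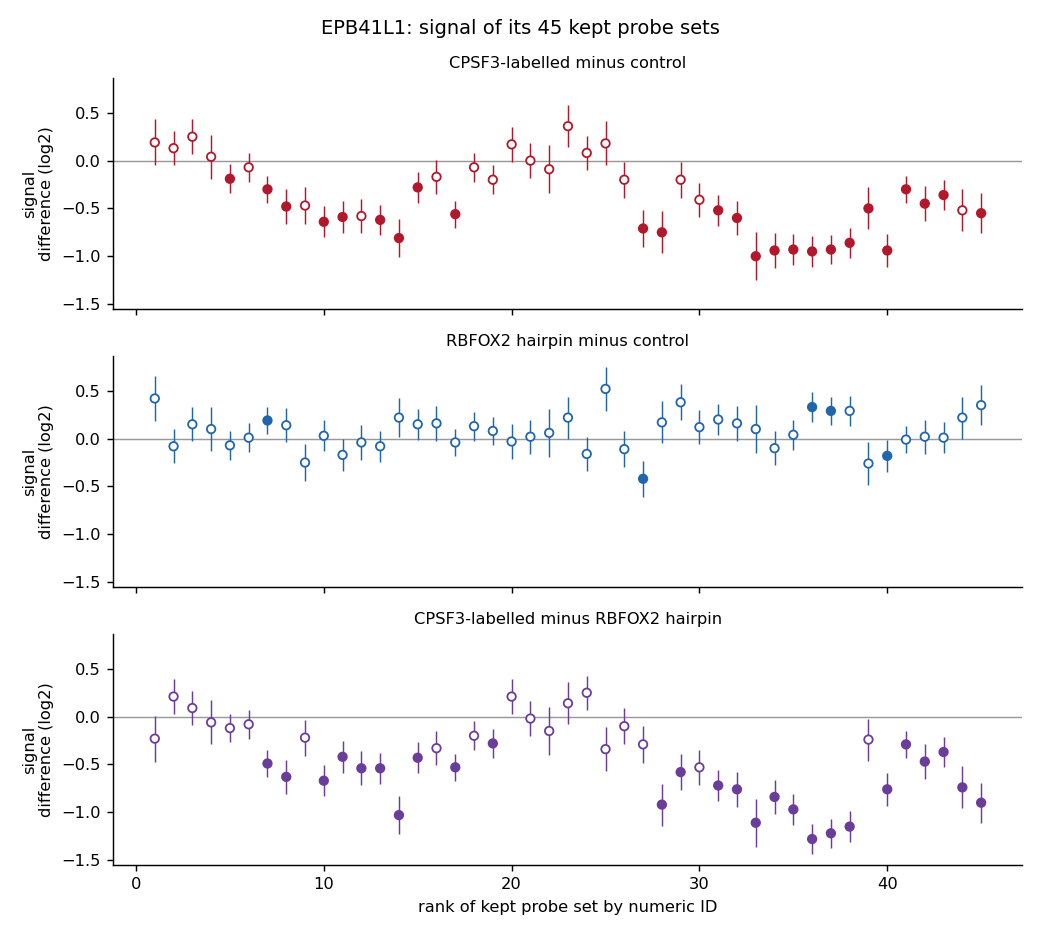
Difference in signal (log2, y axis) for the 45 kept EPB41L1 probe sets in order of probe set number (x axis), from top to bottom CPSF3-labelled minus control, RBFOX2 hairpin minus control and CPSF3-labelled minus RBFOX2 hairpin. Bars are standard errors and filled points mark probe sets whose 3 arrays of one group all lie beyond those of the other; the 15 probe sets with the highest numbers lie below 0 in both comparisons of the CPSF3-labelled arrays.

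In EPB41L2 the exon signals without overlap between CPSF3-labelled and control arrays numbered 7 of 35, all lower, where 9.86% of all exon signals were lower without overlap. The largest was ps2974023, with exon signals of -1.33, -1.67 and -1.15 on the CPSF3-labelled arrays, -0.81, -0.96 and -1.28 on the RBFOX2 hairpin arrays and -0.77, -0.87 and -0.84 on the control arrays. The CPSF3-labelled arrays lay below control by -0.56 ± 0.16 (adjusted p = 0.203, limma) and overlapped the RBFOX2 hairpin arrays, and ps2974081 followed at -0.38 ± 0.18 (adjusted p = 0.42). With the RBFOX2 hairpin, 2 of 35 exon signals did not overlap with control (5.71%, against 10.9% of all exon signals). The lower one was ps2974000, the first of the gene's probe sets in number, at -2.98, -2.53 and -2.54, against -2.25, -2.04 and -2.09 on the control arrays. This difference was -0.55 ± 0.15 (adjusted p = 0.462, limma), and the higher one, ps2974011, was 0.27 ± 0.15 (adjusted p = 0.718).

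Between the targeted groups, 29 of the 35 EPB41L2 probe sets had a higher signal on the CPSF3-labelled than on the RBFOX2 hairpin arrays, with a median difference of 0.18. The widest difference was in ps2974041, which was added after its values were seen. Its signal was 10.12, 10.34 and 10.53 on the CPSF3-labelled arrays, 8.29, 8.87 and 10.17 on the RBFOX2 hairpin arrays and 9.93, 10.11 and 9.68 on the control arrays. RBFOX2 hairpin arrays 1 and 2 were low, and array 3 of that group lay among the CPSF3-labelled arrays. CPSF3-labelled minus RBFOX2 hairpin was 1.22 ± 0.36 as signal (adjusted p = 0.716, limma) and 0.87 ± 0.37 as exon signal (adjusted p = 1). The lowest exon differences were ps2974020, at -0.50 ± 0.16, and ps2974018, at -0.46 ± 0.16 (adjusted p = 1 for both, limma).

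In EPB41L3, 36 of 46 kept probe sets had a higher signal on the CPSF3-labelled than on the control arrays, with a median difference of 0.34, and 33 of 46 had a higher signal on the RBFOX2 hairpin than on the control arrays, with a median of 0.11. Exon signals did not overlap between CPSF3-labelled and control arrays for 14 of 46 (30.4%, against 18.6% of all exon signals), 9 lower and 5 higher (9.86% and 8.75% of all exon signals). The lowest were ps3797046, at -0.71 ± 0.24 (adjusted p = 0.264, limma), and ps3797075, at -0.68 ± 0.17 (adjusted p = 0.146). ps3797075 had exon signals of -3.00, -2.92 and -2.54 on the CPSF3-labelled arrays, -2.29, -2.37 and -2.81 on the RBFOX2 hairpin arrays and -2.21, -2.07 and -2.12 on the control arrays. Both targeted groups lay below control, by -0.35 ± 0.17 for the RBFOX2 hairpin (adjusted p = 0.662, limma).

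The smallest p-value in EPB41L3 belonged to ps3797115, near the upper end of the numbers. Its exon signals were -0.90, -0.65 and -0.67 on the CPSF3-labelled arrays, -0.40, -0.22 and -0.52 on the RBFOX2 hairpin arrays and -0.12, -0.04 and -0.35 on the control arrays. The CPSF3-labelled arrays lay below all others, by -0.57 ± 0.14 against control (adjusted p = 0.138, limma). The 2 probe sets that follow it in order, ps3797116 and ps3797117, were measured at -1.78, -0.99 and -1.10 and at -0.82, -0.80 and -1.37 on the CPSF3-labelled arrays, against -0.72, -0.57 and -0.74 and -0.29, -0.43 and -0.57 on the control arrays. In each of these 3 the CPSF3-labelled arrays lay below the control arrays, and ps3797117 was added after its values were seen. Among the higher ones, ps3797050 was at 1.30, 1.19 and 1.00 on the CPSF3-labelled arrays, 1.23, 1.15 and 1.09 on the RBFOX2 hairpin arrays and 0.93, 0.61 and 0.90 on the control arrays. Its difference from control was 0.35 ± 0.13 in both targeted groups (adjusted p = 0.304 and 0.576, limma), and its neighbour in number, ps3797049, had differences of -0.52 and -0.40. Between the targeted groups ps3797042 was highest, at 0.50 ± 0.23, and ps3797116 lowest, at -0.57 ± 0.22 (adjusted p = 1 for both, limma).

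EPB41L5 had exon signals without overlap for 6 of 29 probe sets in each comparison with control, 2 lower and 4 higher in each. Of all exon signals, 9.86% were lower and 8.75% higher without overlap between CPSF3-labelled and control arrays, and 5.65% lower and 5.24% higher between RBFOX2 hairpin and control arrays. The lowest was ps2503127, with a signal of 8.49, 8.39 and 8.42 on the CPSF3-labelled arrays, 7.93, 8.49 and 8.32 on the RBFOX2 hairpin arrays and 9.92, 9.53 and 8.70 on the control arrays. Both targeted groups lay below control, and control array 3 was the nearest to them. As signals the differences were -0.95 ± 0.26 for the CPSF3-labelled arrays (1.93-fold, adjusted p = 0.0926, limma) and -1.14 ± 0.26 for the RBFOX2 hairpin arrays (2.20-fold, adjusted p = 0.248), and as exon signals they were -0.68 ± 0.20 and -0.66 ± 0.20 (adjusted p = 0.205 and 0.492). Without control array 3 the exon difference of the CPSF3-labelled arrays was -0.89 and passed (adjusted p = 0.0485, limma). At the upper end of the numbers, ps2503172 had exon signals of -1.46, -1.45 and -1.37 on the CPSF3-labelled arrays, -1.66, -1.73 and -1.26 on the RBFOX2 hairpin arrays and -2.21, -2.01 and -2.08 on the control arrays. The control arrays were lowest, with differences of 0.68 ± 0.14 for the CPSF3-labelled arrays (95% interval 0.36 to 0.99, adjusted p = 0.108, limma) and 0.55 ± 0.14 for the RBFOX2 hairpin arrays (0.24 to 0.87, adjusted p = 0.458). The last probe set, ps2503173, had differences of 0.60 ± 0.22 and 0.63 ± 0.22 (adjusted p = 0.294 and 0.536, limma). No EPB41L5 exon signal reached an unadjusted p under 0.05 between the targeted groups, where the smallest p was 0.102 for ps2503159, at -0.34 ± 0.19 (adjusted p = 1).

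Along EPB41L5 the medians of the 9 lowest-numbered probe sets differed from control by -0.45 on the CPSF3-labelled and -0.59 on the RBFOX2 hairpin arrays. All targeted arrays lay below control there, though control array 3, at 8.98, was close to CPSF3-labelled array 1, at 8.97. For the 10 highest-numbered probe sets the differences were 0.14 and 0.04, and the groups overlapped. The median of the 10 highest-numbered probe sets minus that of the 9 lowest-numbered was -0.60, -0.91 and -0.63 on the CPSF3-labelled arrays, -0.64, -0.56 and -0.84 on the RBFOX2 hairpin arrays and -1.58, -1.50 and -0.82 on the control arrays. Control arrays 1 and 2 stood apart from the other arrays, and control array 3 fell within the targeted groups. The difference from control was 0.59 for the CPSF3-labelled arrays, a size that 5.25% of the 7294 genes reached, and 0.62 for the RBFOX2 hairpin arrays, a size that 1.97% reached.

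**Figure D5:**
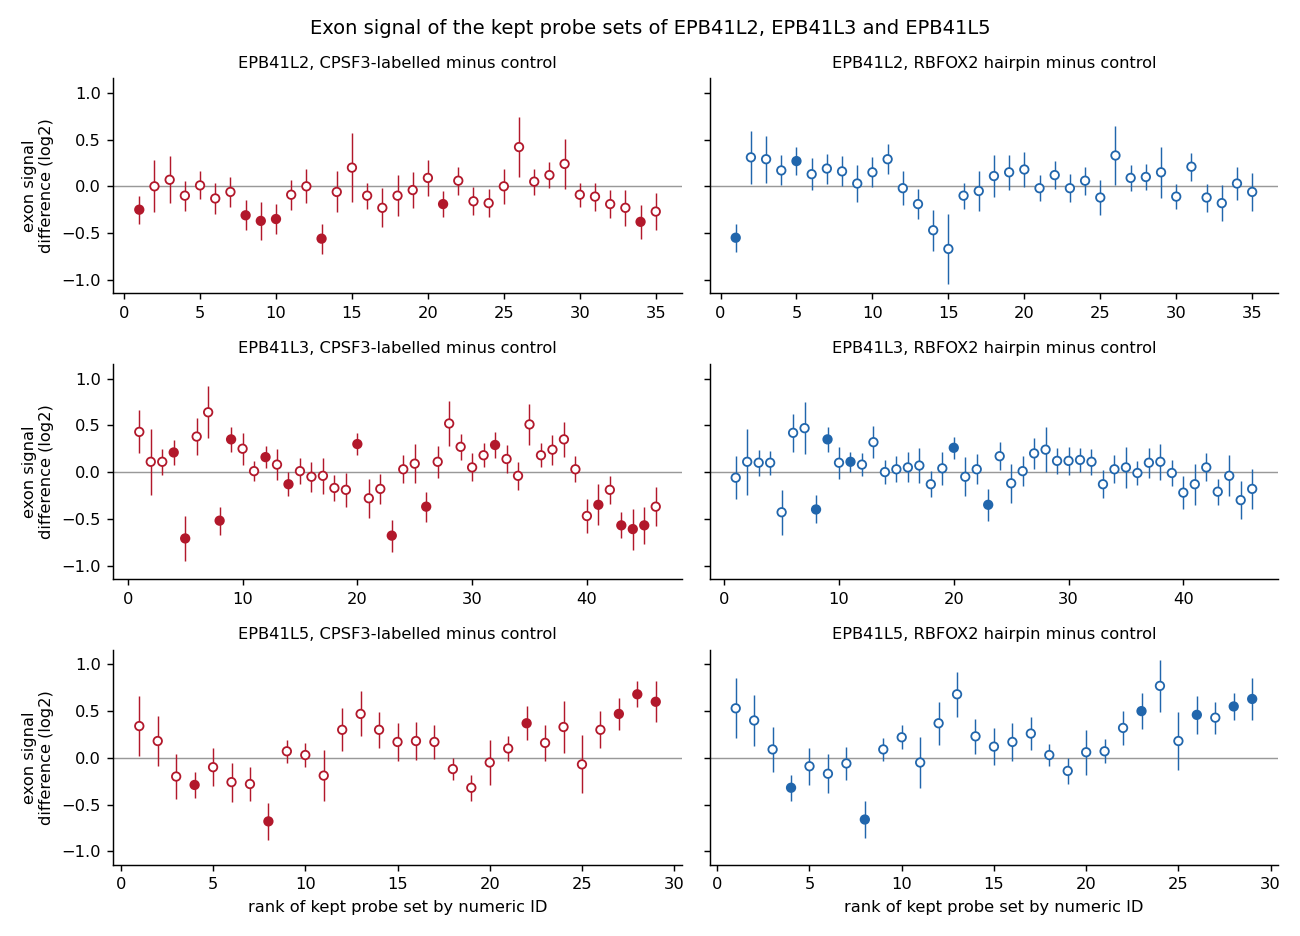
Difference in exon signal (log2, y axis) for the kept probe sets of EPB41L2 (35), EPB41L3 (46) and EPB41L5 (29) in order of probe set number (x axis), CPSF3-labelled minus control and RBFOX2 hairpin minus control, with standard errors as bars and filled points where the arrays of the 2 groups do not overlap. Differences lie between -0.71 and 0.77, with ps2503127 of EPB41L5 at -0.68 and -0.66 and ps2503172 at 0.68 and 0.55.

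The genes whose level followed each member most closely over the 9 arrays were listed by Pearson correlation, as a description of arrays that fall into 3 groups. For EPB41 they were GATB (0.970), TXLNB (0.956) and WWC1 (0.955), and for EPB41L1 they were DEPTOR (0.966), ARHGEF6 (0.964) and PPP2R2C (0.956). For EPB41L2 they were NUDC (0.972), DNAJC2 (0.948) and ELOA (0.945), for EPB41L3 TAF4 (0.979), KBTBD4 (0.972) and VPS25 (0.966), and for EPB41L5 H2AC25 (0.974), CNBP (0.961) and YOD1 (0.951).

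Genes that work with the family were taken from fixed lists. Of 24 other genes with a FERM domain, 2 rose and 0 fell between CPSF3-labelled and control arrays, with a median difference of 0.18 beside 0.01 for all genes, of which 10.0% rose. KRIT1, which acts at endothelial junctions, was at 9.09, 8.90 and 8.63 on the CPSF3-labelled arrays, 8.36, 8.29 and 8.78 on the RBFOX2 hairpin arrays and 8.07, 7.83 and 8.39 on the control arrays, a rise of 0.78 ± 0.17 on the CPSF3-labelled arrays relative to control (adjusted p = 0.0103, limma). PTPN13, a protein tyrosine phosphatase with a FERM domain, rose by 0.63 ± 0.15 (adjusted p = 0.0151). The close relatives EPB41L4A and EPB41L4B differed from control by 0.36 ± 0.13 and -0.09 ± 0.11 on the CPSF3-labelled arrays and by 0.37 ± 0.13 and 0.05 ± 0.11 on the RBFOX2 hairpin arrays (adjusted p from 0.0749 to 0.915, limma).

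Of 18 measured genes of the spectrin membrane skeleton, 1 rose and 1 fell between CPSF3-labelled and control arrays, where 10.0% of all genes rose and 4.38% fell, with a median difference of 0.00. ANK2, an ankyrin that anchors spectrin to channels and transporters, rose by 0.53 ± 0.16 (adjusted p = 0.042, limma). TMOD2, a tropomodulin that caps actin filaments, fell by 0.44 ± 0.13 (adjusted p = 0.0386). Of 17 measured membrane and scaffold partners, 3 rose and 1 fell, against the same shares of all genes, with a median of -0.01. DLG1, a scaffold protein that binds protein 4.1, was at 9.84, 9.58 and 9.60 on the CPSF3-labelled arrays and 9.17, 8.94 and 9.14 on the control arrays, a rise of 0.59 ± 0.13 (adjusted p = 0.00898, limma). The arginine methyltransferases PRMT3, which binds EPB41L3 protein, and PRMT5 rose by 0.55 ± 0.14 and 0.42 ± 0.13 (adjusted p = 0.0188 and 0.0384). CADM4, an adhesion molecule, fell by 0.51 ± 0.11 (adjusted p = 0.00933).

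None of these 3 lists had a member that passed between RBFOX2 hairpin and control arrays, where the smallest adjusted p in limma was 0.159, for PRMT3, and 0.173% of all genes passed. The list of regulators of EPB41 exon 16 known from other work had 6 measured genes, and none passed in either comparison with control. RBFOX2 itself had the smallest adjusted p with the RBFOX2 hairpin, 0.0617. RBFOX1, its paralogue, was at 7.98 ± 0.15 on the CPSF3-labelled arrays, 7.99 ± 0.22 on the RBFOX2 hairpin arrays and 8.08 ± 0.19 on the control arrays (SD, n = 3 each). HNRNPA2B1, an RNA-binding protein reported to repress the exon, differed from control by -0.39 ± 0.16 on the CPSF3-labelled arrays (adjusted p = 0.131, limma) and by -0.36 ± 0.16 on the RBFOX2 hairpin arrays (adjusted p = 0.34). HNRNPA1, a relative added after its values were seen and one with near-identical pseudogenes that can share its probes, was at 9.97, 10.13 and 9.92 on the CPSF3-labelled arrays, 9.28, 10.02 and 9.89 on the RBFOX2 hairpin arrays and 10.71, 10.88 and 9.89 on the control arrays. Control array 3 lay within the targeted groups, and the differences from control were -0.49 ± 0.23 on the CPSF3-labelled arrays (adjusted p = 0.182, limma) and -0.77 ± 0.23 on the RBFOX2 hairpin arrays (adjusted p = 0.166).

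The mean level of markers of the line itself differed between the groups. All 7 listed HEK293 markers were measured, and their mean level was 9.38, 9.41 and 9.31 on the CPSF3-labelled arrays, 9.66, 9.67 and 9.52 on the RBFOX2 hairpin arrays and 10.08, 9.98 and 9.92 on the control arrays, without overlap of groups. On the CPSF3-labelled arrays 4 of the 7 fell relative to control, where 4.38% of all genes fell. These were ENO2 by 1.33, VIM by 1.05, NEFL by 0.87 and KRT8 by 0.57 on the log2 scale. NEFM, KRT18 and PAX2 did not pass, at -0.35, -0.15 and -0.08 (adjusted p from 0.108 to 0.704, limma). On the RBFOX2 hairpin arrays ENO2 alone passed, lower by 0.92 ± 0.14 (adjusted p = 0.0255, limma), where 0.173% of all genes passed. Their part in the differences of the family members was not tested. Of the 5 measured erythroid markers none passed in any comparison, and their mean level lay between 7.92 and 8.22 on all arrays. Markers of other blood cells (3 measured), fibroblasts (7) and endothelium (5) likewise had no called member, with mean levels between 7.85 and 8.79. Over all genes the lower quartile of the gene level was 8.23 and the median 8.76. EPB41L1 on the CPSF3-labelled arrays, at a mean of 8.15, lay in the range of the erythroid markers.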

How the data were processed

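Each deposited log2 signal belongs to 1 probe set on 1 array, and the authors made these values with RMA in Affymetrix Power Tools on build hg18, per the submitters' processing notes, which give no version. RMA forces the arrays towards a common distribution, which hides a shift common to most transcripts and compresses differences of weak signals. Gene symbols came from the platform annotation and were updated through RefSeq (16426 current, 2950 updated, 121 kept as given). Probe sets with several symbols (14898) or none (1014733) were not named.

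Gene levels (16748 genes with at least 3 kept probe sets), exon signals (257548 probe sets of genes with at least 5) and single signals (692116) were each fitted with limma 3.58.1 in R 4.3.3, with the data.table package, version 1.17.8, in 1 model of 3 groups without a block. Tests were 2-sided, p-values were adjusted by Benjamini-Hochberg across each comparison's features with a threshold of 0.05, and the number of arrays limits the precision. The fits were tested on simulated data. Alternatives were no filter, a filter at the upper quartile (8.36), other gene levels, quantile normalisation, centring, each array left out, array weights, a fit of only the groups being compared, a robust fit with a variance trend, and the replicate number as a block. A run without the 338 exon signals that are exactly 0 on every array, and the grouping of probe sets into runs by number, were added after the data were seen. The members and gene lists were chosen with earlier results of these data known.

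The named probe sets are, per gene and comparison, up to 2 highest and 2 lowest exon differences without overlap of arrays, the one with the smallest p-value, and all that passed a test. The named list genes are the called members, or genes with the smallest p-value where a comparison called none. EPB41L4A, EPB41L4B, RBFOX1, HNRNPA1 and the HEK293 markers that did not pass are named in addition.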

Additional observations from a re-analysis of the deposited data

How the results depend on the processing

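Of 345 values under other settings for 19 main results, 300 were rated the same as in the main setting. For a difference, the same means that it kept its direction and its side of the threshold. For a count of called members, it means an equal or similar count. EPB41L1 on the CPSF3-labelled arrays relative to control ranged from -0.57 to -0.47 with 1 array left out and did not pass with no filter (-0.36, adjusted p = 0.0712, limma). Its RBFOX2 hairpin difference, -0.01, turned to 0.08 with no filter, 0.20 with the stricter filter and 0.07 with the mean as gene level, and ranged from -0.07 to 0.05 with 1 array left out. EPB41L3 on the CPSF3-labelled arrays passed with the stricter filter (0.42), the mean as gene level (0.29) and array weights (0.34). EPB41L5 passed with array weights, at -0.56 on the CPSF3-labelled and -0.72 on the RBFOX2 hairpin arrays, and on the RBFOX2 hairpin arrays also without control array 3 (-0.61).

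With 1 array left out, differences from control on the CPSF3-labelled arrays ranged from 0.09 to 0.33 for EPB41, 0.12 to 0.40 for EPB41L2, 0.24 to 0.35 for EPB41L3 and -0.40 to -0.05 for EPB41L5. On the RBFOX2 hairpin arrays they ranged from 0.15 to 0.38 for EPB41, -0.24 to 0.05 for EPB41L2, 0.00 to 0.11 for EPB41L3 and -0.61 to -0.26 for EPB41L5. EPB41L2 turned to 0.05, and EPB41L3 to just below 0, without control array 1. EPB41 between the targeted groups turned to 0.04 without CPSF3-labelled array 2 (range -0.17 to 0.04 with 1 array left out), and CPSF3 itself to 0.07 on the CPSF3-labelled arrays relative to control without control array 3 (range -0.20 to 0.07).

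Counts of member genes called between CPSF3-labelled and control arrays (1) became 0 with no filter, 2 with the stricter filter or the mean, and 3 with array weights. With the RBFOX2 hairpin (0) they became 1 without control array 3 or with array weights. Between the targeted groups (0) they became 1 with the stricter filter, the mean, array weights or without control array 3. Member exon signals called between CPSF3-labelled and control arrays (0) became 1 with the mean, the median of the other probe sets, a variance trend or exact zeros left out, 2 with array weights, and 0 to 2 with 1 array left out. With the RBFOX2 hairpin they were 0 to 1 with 1 array left out. Single probe sets called between CPSF3-labelled and control arrays (7) became 0 with no filter, 12 with the stricter filter, 20 with array weights, 16 with a variance trend and 0 to 14 with 1 array left out. With the RBFOX2 hairpin they were 0 to 4, and between the targeted groups (0) they became 3 with the stricter filter or a variance trend and 2 with array weights. The shares of all features that passed under these settings were not counted, so the member counts cannot be set against them. The causes were not tested.

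Deviations of arrays from different groups correlated from -0.14 to 0.33 where the replicate number was the same. Where it differed they correlated from -0.45 to 0.35. With 3 arrays a group these ranges cannot decide whether replicate numbers pair the arrays. With the number as a block, EPB41L1 on the CPSF3-labelled arrays stayed at -0.51, and the block changed no other call except that RBFOX2 itself passed on the RBFOX2 hairpin arrays (-0.58). The RMA signals carry no count, and weak probe sets limit what could be detected.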
